A study of Arabidopsis thaliana with 74 samples.

Results

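The windows described here are the 200 positions of the Arabidopsis genome that collected the most small RNA reads in a panel of epiHybrids and their parents. The genome table of the CHH context, whose regions are 200 bp long and start every 50 bp, was reduced to its 594835 windows that do not overlap each other, and the 200 windows with the highest mean raw count over all 74 libraries were taken. The members were thus selected on their raw counts, and their levels are given as a description. The comparisons between groups of libraries played no part in the choice, except that a window high in some lines only can enter through those lines.

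Small RNA was sequenced from aerial rosettes harvested 27 days after sowing, with 1 library for each of 36 epiHybrids, 36 epiRILs and 2 msCol lines (12 and 16). The rosettes of a line were pooled over 3 growth experiments before extraction. An epiRIL is an inbred line of Columbia background whose DNA methylation descends partly from a founder with the ddm1-2 mutation, and each epiRIL here is a different line. Each epiHybrid is the F1 of 1 epiRIL as father and msCol as mother, and the pair is called a family. msCol is a male-sterile Columbia line that carries the ms1 allele and, around the MS1 gene on chromosome 5, a segment of 2.7 Mb from the accession Landsberg. The mother is thus shared by all families, and the libraries of a group are different lines and not repeats of 1 line, except for msCol 12 and 16. Each line was sequenced once, so p-values measure the spread between these libraries. The study had picked the families by leaf area, to cover epiHybrids far above, far below and close to their parents, and which msCol line was the mother of a family is not given in the sources used here.

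Most abundant plant small RNAs come from a few kinds of loci. MicroRNAs are cut from hairpin transcripts and guide Argonaute proteins to mRNAs. TAS transcripts are cleaved by a microRNA, copied into double-stranded RNA and diced into trans-acting siRNAs. Ribosomal and transfer RNAs yield fragments of many lengths, while silenced transposons of the chromosome centres give siRNAs that guide DNA methylation. The deposited counts are not separated by read length, so a count at an rRNA or tRNA gene may hold siRNAs, processed fragments or breakdown products, which cannot be told apart.

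The sequences of the windows and microRNAs on which the results turn are shown first (RefSeq, build TAIR10.1, plus strand, 5′ to 3′). In the window of MIR398b at chr5:4691001-4691200, the most abundant of all, capitals mark the annotated mature microRNAs. In the window of AT3G06365 at chr3:14202001-14202200, the most abundant window of the ribosomal RNA repeats, capitals mark bases in a 21-mer that the start of chromosome 2 also holds. In the window at chr1:2107401-2107600, capitals mark the tRNA-Gly gene AT1G06860, which fills 68 of its 200 bases. In the window at chr5:11942601-11942800, one of 3 that were high in some lines only, capitals mark 87 bases of the gene MIR854e.
MIR398b window: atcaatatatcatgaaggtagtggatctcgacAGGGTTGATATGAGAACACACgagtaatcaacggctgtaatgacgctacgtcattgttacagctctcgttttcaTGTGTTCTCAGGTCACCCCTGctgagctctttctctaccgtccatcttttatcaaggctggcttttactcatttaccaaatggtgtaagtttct
AT3G06365 window: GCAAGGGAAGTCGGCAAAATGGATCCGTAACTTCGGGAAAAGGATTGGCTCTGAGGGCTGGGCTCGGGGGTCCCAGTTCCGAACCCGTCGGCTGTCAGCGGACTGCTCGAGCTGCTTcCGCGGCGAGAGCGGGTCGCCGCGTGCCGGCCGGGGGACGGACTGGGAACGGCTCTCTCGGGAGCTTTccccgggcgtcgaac
tRNA-Gly window: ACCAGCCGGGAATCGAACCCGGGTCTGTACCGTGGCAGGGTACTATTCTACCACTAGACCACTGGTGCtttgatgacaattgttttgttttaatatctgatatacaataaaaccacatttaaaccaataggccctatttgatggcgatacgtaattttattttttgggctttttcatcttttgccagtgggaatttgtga
MIR854e window: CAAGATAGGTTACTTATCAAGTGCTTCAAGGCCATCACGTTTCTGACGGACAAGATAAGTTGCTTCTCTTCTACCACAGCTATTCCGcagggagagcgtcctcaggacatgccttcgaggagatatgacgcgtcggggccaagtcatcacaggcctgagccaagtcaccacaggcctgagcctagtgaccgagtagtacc

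Mature microRNAs are given with the seed, bases 2 to 8, in capitals. miR398b-3p and miR398c-3p are identical, as are the 3p arms of miR162a and miR162b and the guide strands of miR160a, miR160b and miR160c, so reads of these cannot be assigned to 1 gene by sequence. miR163 is shown because its window differed between epiHybrids and epiRILs, and miR171a-3p because its sequence lies in a member window of another gene.
miR398b-3p: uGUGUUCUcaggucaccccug
miR162b-3p: uCGAUAAAccucugcauccag
miR160a-5p: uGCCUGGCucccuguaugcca
miR163: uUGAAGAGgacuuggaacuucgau
miR171a-3p: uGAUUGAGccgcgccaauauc

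Library totals over the windows lay between 20995764 and 27084303 counts in epiHybrids, between 24515153 and 26777462 in epiRILs, and at 25212867 and 23979424 in msCol 12 and 16. At 494 informative windows around MS1, the epiHybrid lay nearer to msCol than its epiRIL did in 34 of 36 families. Families 12 and 568 went the other way, and results that rest on families are also given without them where this matters. On a scale with lower values nearer msCol, the median position was 0.52 for epiHybrids and 1 for epiRILs. In family 12 the epiHybrid lay at 0.996 and the epiRIL at 0.667, and in family 568 they lay at 1.15 and 0.631. Whether the libraries of these families were exchanged was not tested, and the labels were kept. The library labelled msCol 16 stood apart, with a TMM scaling factor of 0.736, and the main results against msCol are also given without it. The paper gives default parameters for the aligner, and how it placed reads that map to several places was not examined. The same window in the CG or CHG table differed from the CHH table by a median of 0.227% or 0.204% of its count. The largest single differences were 100% and 200%, both at tRNA windows.

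The 200 windows, 200 of 594835, held 50.8% of all counts. The most abundant window alone held 3.22%, the first 10 held 16.2%, the first 50 held 37.4% and the first 100 held 46.1%, whereas the next 800 windows brought the sum to 59.9%. By annotation, 51 windows overlapped 44 tRNA genes, 47 overlapped 41 microRNA genes, 33 overlapped other non-coding RNA genes, 23 overlapped rRNA genes and 9 overlapped 5 TAS genes. A further 21 windows were intergenic, 11 overlapped an exon of a protein-coding gene, 4 a transposable element gene or pseudogene, 1 a snoRNA gene, and 0 lay in an intron. The members took up nearly all counts of some classes and few of others. They held 99.7% of all counts in rRNA windows, 97.6% of those in TAS windows, 93.6% of those in microRNA windows and 71.7% of those in tRNA windows, against 9.99% of counts in intergenic windows and 4.26% of counts in windows of transposable element genes.

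**Figure D1:**
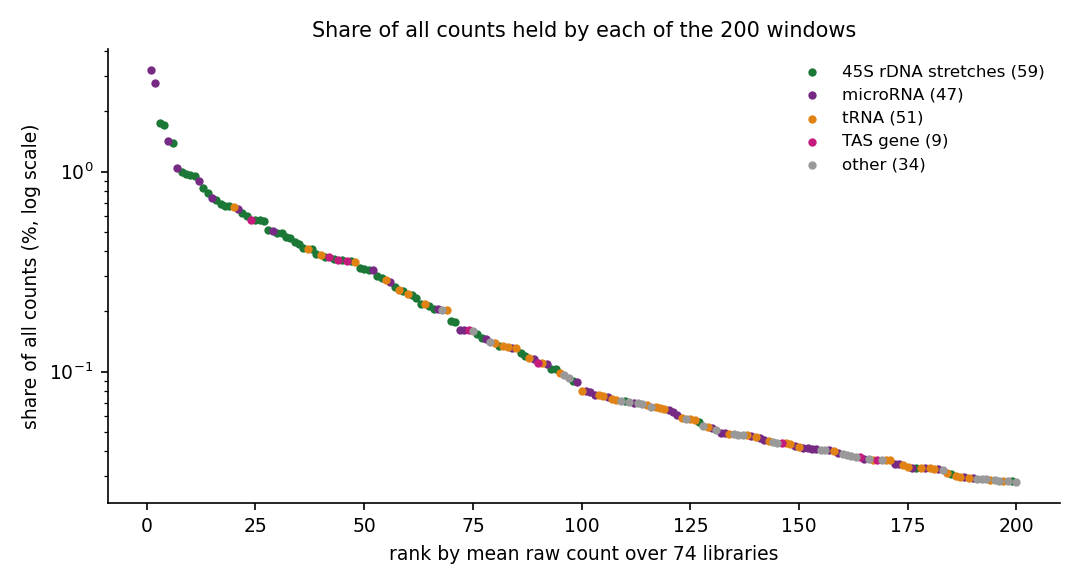
Share of all counts (%, log scale) held by each of the 200 windows, against its rank by mean raw count over 74 libraries; colours give the 45S rDNA stretches (59), other microRNA (47), tRNA (51) and TAS (9) windows and the remaining 34. The share was 3.22% at rank 1 and 0.0281% at rank 200, and most of the ranks from 3 to 50 are windows of the 45S stretches.

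Chromosome 3 held 63 of the windows, chromosome 2 held 53, chromosome 5 held 39, chromosome 1 held 32 and chromosome 4 held 13. The positions were not spread evenly, because 59 of the 200 windows lay in 2 short stretches that the reference holds of the 45S rDNA, the tandem array from which the large ribosomal RNAs are transcribed. On chromosome 2, between 1801 and 9600, 25 windows held 10.3% of all counts. On chromosome 3, between 14192801 and 14203600, 34 windows held 16.5%. These stretches were delimited after the positions had been seen. They contain all 23 rRNA members, 26 of the 33 members in other non-coding RNA genes, 6 intergenic members and 4 exon members. Within 3 Mb of a centromere lay 59 members (29.5%), against 25.1% of all windows, and 25 of these 59 lay outside the 45S stretches.

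The 10 leading windows were 4 of microRNA genes and 6 of the 45S stretches. MIR398b (window at chr5:4691001-4691200) and MIR398c (chr5:4694601-4694800), whose product targets copper superoxide dismutase mRNAs, had mean raw counts of 825499 and 709415. MIR167a (chr3:8108001-8108200), which targets auxin response factors, had 363370, and MIR159a (chr1:27713201-27713400), which targets MYB transcription factors, had 267399. The other 6 of the first 10 windows lay in the 45S stretches. The window of AT3G06365 at chr3:14202001-14202200 had a mean raw count of 449092 and the intergenic window at chr2:9401-9600 had 438089. Windows of the short rRNA gene AT2G01020 had 355535 at chr2:5801-6000 and 246595 at chr2:5601-5800. A window of AT3G06365 at chr3:14200601-14200800 had 254278 and a window of AT2G01021 at chr2:6601-6800 had 248713.

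Below rank 10, the most abundant tRNA window was that of the tRNA-Thr gene AT2G03660 (rank 20, mean raw count 170657), and the most abundant TAS window was in TAS1A (rank 24, 147477). The members closest to the threshold were at 7271, 7265 and 7186 counts for the last 3 ranks, and the first windows left out had 7139, 7083 and 6983 counts. Of the last 3 members, 2 lay in AT3G06435 on chromosome 3 and 1 at the edge of the 45S stretch. With the mean share of the library in place of the mean raw count, all 200 windows were the same.

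Normalised counts, which are raw counts divided by the effective library size and brought to a common scale, varied widely between lines for some classes. MIR398b had 85090, 773442 and 1707080 normalised counts in epiHybrids (lowest, median and highest), 149938, 898155 and 2108230 in epiRILs, and 780032 and 1205810 in msCol 12 and 16. The 3 groups overlapped, and the window varied more between lines of a group than between groups. The rDNA window chr3:14202001-14202200 had 315280, 446046 and 663507 normalised counts in epiHybrids, 349832, 441463 and 595496 in epiRILs, and 359817 and 972593 in msCol 12 and 16. Here epiHybrids, epiRILs and msCol 12 overlapped, and msCol 16 lay above them all. Between these extremes, MIR161 averaged 223807 ± 41181 normalised counts in epiHybrids and 233949 ± 37059 in epiRILs (SD, n = 36 each), with 185751 and 270464 in msCol 12 and 16. MIR166a averaged 167878 ± 46255 in epiHybrids and 166471 ± 38081 in epiRILs, with 139255 and 230720 in msCol 12 and 16. The most abundant window of a transposable element gene or pseudogene, that of AT1G57900 (rank 68), averaged 47777 ± 18124 in epiHybrids and 56483 ± 20154 in epiRILs, with 45986 and 125395 in msCol 12 and 16. Over the 36 epiRILs, the median coefficient of variation was 0.138 for rRNA windows, 0.167 for TAS windows, 0.280 for microRNA windows and 0.739 for tRNA windows, against 0.189 for the next 1800 windows by rank and 0.547 for all 174612 windows tested.

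Single classes held the extremes of variation. The only snoRNA member, at AT3G03175, had 399, 12043 and 55420 normalised counts in epiHybrids, 112, 12876 and 79615 in epiRILs, and 178 and 2498 in msCol 12 and 16. The tRNA-Gly window at AT1G06860 had 8956, 67507 and 381055 normalised counts in epiHybrids, 5180, 82586 and 228715 in epiRILs, and 2077 and 23233 in msCol 12 and 16. At the tRNA-Gly window msCol 12 was below every epiHybrid and epiRIL, and at the snoRNA window it lay near the lowest of them. The windows of MIR160a, MIR160b and MIR160c, on 3 chromosomes, moved together, with Pearson correlations of their log2 levels between 0.95 and 0.98 over the 74 libraries. These windows share the mature sequence shown above and therefore reads, and the correlation is given as a description.

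Many members hold sequence that the genome repeats. Of the 200 windows, 188 had at least 1 of their 21-mers elsewhere in the nuclear genome, and 78 had at least 50% of them elsewhere. Linking windows that share at least 20 different 21-mers gave 36 families of 2 or more windows with 93 members. Of these, 24 families (50 windows) lay in the 45S stretches and 7 held tRNA genes (29 windows, among them that of MIR8175). The 18S genes AT2G01010 and AT3G41768 match at 1806 of 1808 positions and the short rRNA genes AT2G01020 and AT3G41979 at 164 of 164. In all 7 tRNA families and in 20 of the 24 families of the 45S stretches, the sum over the windows of a family varied less between epiRILs than its median window did. A sum of windows that do not move fully together tends to vary less in any case, so this does not show that reads are shared. The window of MIR8175 grouped with 2 tRNA-Asp windows by shared 21-mers.

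One member outside the microRNA class held an annotated mature microRNA exactly. It lies in HAM3 (AT4G00150), a GRAS transcription factor that miR171 targets, and miR171a-3p is at 58411 to 58431 of chromosome 4 on the strand opposite to that of the gene's mRNA. The window ranked 135, with a mean raw count of 12457. Its log2 level correlated with those of the windows of MIR171a, MIR171b and MIR171c at 0.47, 0.47 and 0.37 over the 74 libraries, which share depth and, for MIR171a, the mature sequence. With the window of MIR170, whose miR170-3p has the seed of miR171a-3p, it correlated at 0.12. In all, 63 mature microRNAs of 52 different sequences and 46 seeds lay in the members, and the largest group with 1 seed, CGGACCA, was miR165a-3p, miR165b, miR166a-3p and miR166e-3p, which target class III HD-ZIP transcription factors.

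Whether the members took a different part of the library in epiHybrids than in epiRILs was asked first, since a share needs no scaling between libraries. The 200 windows held 50.6% ± 2.83 of counts in epiHybrids and 50.7% ± 2.77 in epiRILs (SD, n = 36 each). In 18 of 36 families the epiHybrid had the higher share, and the mean difference was -0.083 percentage points (SE 0.646), which did not pass a two-sided sign-flip permutation test over families (p = 0.898). The microRNA windows held 14.4% in both groups, the 45S stretches 26.4% in epiHybrids and 26.7% in epiRILs, and the tRNA windows 5.56% ± 2.21 in epiHybrids and 5.70% ± 2.65 in epiRILs. The binomial 95% interval (Wilson) of a library's share was narrow, for example 63.7% to 63.8% for msCol 16, and covers counting error only.

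The share of TAS windows differed between epiHybrids and epiRILs. The 9 TAS windows held 2.25% ± 0.31 of counts in epiHybrids and 1.88% ± 0.28 in epiRILs, a difference of 0.376 percentage points (SE 0.0757), higher in 29 of 36 families (permutation p = 3e-05, adjusted p = 0.00033 over 11 shares). The ranges of the groups overlapped. The 4 windows of transposable element genes or pseudogenes held 0.341% ± 0.0994 in epiHybrids and 0.416% ± 0.178 in epiRILs, and the share was higher in the epiHybrid in 10 of 36 families. No test is given for this share, because 2 of its 4 windows, those of AT5G29975 and AT5G31719, became members through lines in which they were high, as described below, and were higher on average in epiRILs, while the window of AT4G06477 was higher in epiHybrids. For the same reason the correlation of this share between an epiHybrid and its own epiRIL, r = 0.68 over 36 families, is a description. Of the other 10 shares, the r was 0.39 for exon windows (permutation p = 0.0183, adjusted p = 0.101 over 11 relations), 0.31 for intergenic windows, 0.29 for the 45S stretches and 0.29 for other non-coding RNA windows (adjusted p = 0.19 for each of these 3). It was 0.06 for microRNA windows, 0.02 for rRNA windows, -0.06 for tRNA windows and 0.04 for all 200. None of these 10 passed the adjustment, and without families 12 and 568 that of the exon windows did (r = 0.48, permutation, adjusted p = 0.0232). The r was also computed without the 2 families farthest from the median epiRIL share of a class. It then fell to 0.25 for exon windows, 0.11 for intergenic windows, 0.10 for the 45S stretches and 0.19 for other non-coding RNA windows.

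Against msCol, the shares of the intergenic and exon windows were lower than in both msCol libraries, and the difference of the 45S share was larger with msCol 16 than with msCol 12. The 21 intergenic windows held 2.43% to 4.38% of counts in epiHybrids, 2.52% to 3.74% in epiRILs, and 4.51% and 5.10% in msCol 12 and 16. The 11 exon windows held 1.51% to 2.20% in epiHybrids, 1.48% to 2.34% in epiRILs, and 2.42% and 2.79% in msCol 12 and 16. Both msCol libraries thus lay above every other library in both classes, of which 6 intergenic and 4 exon windows lie in the 45S stretches. Such 45S windows lead both classes, with mean raw counts of 438089 at chr2:9401-9600 and 248713 at chr2:6601-6800. In the fit of epiRILs against both msCol lines, the exon windows had a median log2 fold change of 0.66. Of them 4, all outside the 45S stretches, were called higher and 1 lower. The differences of these shares are thus not separate from that of the 45S stretches. The differences were -1.73 percentage points for epiHybrids and -1.77 for epiRILs in intergenic windows, and -0.804 for epiHybrids and -0.766 for epiRILs in exon windows (exact permutation p = 0.00142 for each, the smallest that 703 splits can give, adjusted p = 0.00782). The 200 windows together held 44.6% to 58.8% of counts in epiHybrids and 43.8% to 55.5% in epiRILs, with 49.99% in msCol 12 within both ranges and 63.8% in msCol 16 above them. The 45S stretches held 22.3% to 32.2% in epiHybrids and 23.4% to 30.8% in epiRILs, against 30.7% in msCol 12 and 41.9% in msCol 16. The difference of the 45S share was -9.89 percentage points for epiHybrids against msCol and -9.60 for epiRILs against msCol (exact permutation p = 0.00284 for each, adjusted p = 0.0104). Without msCol 16 these differences were -4.27 (exact permutation p = 0.0811) and -3.98 (exact permutation p = 0.0541), and without msCol 12 they were -15.5 and -15.2 (exact permutation p = 0.027 for each). With 1 msCol library, 0.027 is the smallest p that the test can give. The shares of rRNA and other non-coding RNA windows, most of which lie in the 45S stretches, also differed, with adjusted p = 0.0438 and 0.0156 for epiHybrids and 0.0313 and 0.0196 for epiRILs (exact permutation).

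**Figure D2:**
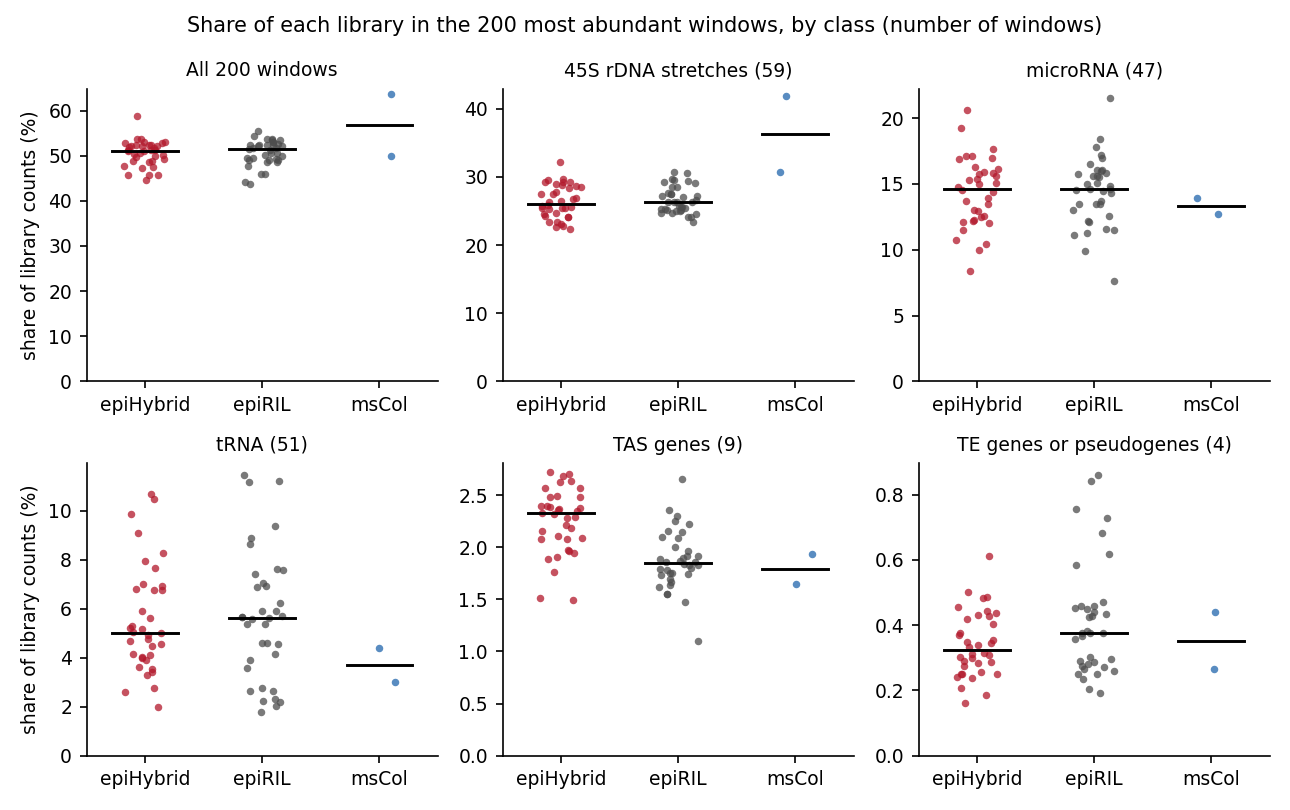
Share of library counts (%) in all 200 windows and in 5 groups of them, for 36 epiHybrids, 36 epiRILs and 2 msCol lines; each point is a library and each line a group median. The TAS windows had a median of 2.32% in epiHybrids and 1.85% in epiRILs, and msCol 16 is the upper msCol point at 41.9% for the 45S stretches.

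EpiHybrids were then compared with epiRILs window by window, with the family as a block in edgeR's quasi-likelihood test and Benjamini-Hochberg adjustment over 174548 windows. All 200 members were tested, and 32 (16.0%) were called at an adjusted p under 0.05, against 8.03% of all windows tested and 15.8% of the next 1800 windows by rank, which are nearer in depth. The share of members called is thus close to that of the next most abundant windows. Of the 32, 15 were higher and 17 lower in epiHybrids, and 3 of the 17 lower ones, near MIR854 genes, became members through lines in which they were high. Scaling by library size alone gave 21 higher and 13 lower, and by library size computed without the 200 windows 21 and 11. Without the family block, 18 members were called (12 higher, 6 lower), 17 of them among the 32. Leaving out families 12 and 568 gave 37 called members (18 higher, 19 lower), 31 of them among the 32. The median log2 fold change of the members was -0.05 and that of all windows 0.05.

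TAS windows were higher in epiHybrids. Of the 9 members, 8 were called higher and 0 lower, in TAS1A, TAS1B, TAS1C, TAS2 and TAS3, where 4.48% of all windows tested and 7.44% of the next 1800 windows were called higher. The called log2 fold changes ran between 0.16 and 0.58, and among all TAS windows tested, 12 of 32 were higher and 0 lower. Under the other scalings, 7 or 8 of the 9 were called higher. TAS1, TAS2 and TAS3 differ in the microRNA that starts their processing, miR173 for TAS1 and TAS2 and miR390 for TAS3, and members of both kinds were among those called.

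TAS1B (AT1G50055, chr1:18549401-18549600) had 7885, 11216 and 17252 normalised counts in epiHybrids (lowest, median and highest), 3849, 7704 and 11014 in epiRILs, and 5979 and 8443 in msCol 12 and 16. The epiHybrid exceeded its own epiRIL in 34 of 36 families, although the 2 ranges overlap. The log2 fold change was 0.58 ± 0.06 (SE, adjusted p = 1.57e-08). TAS1C (AT2G39675, chr2:16537801-16538000) averaged 101480 ± 12919 normalised counts in epiHybrids, 84759 ± 11298 in epiRILs (SD, n = 36 each), and had 52564 and 84806 in msCol 12 and 16. In 32 of 36 families the epiHybrid was the higher one, with a log2 fold change of 0.28 ± 0.04 (SE, adjusted p = 9.72e-06). The TAS1A window at chr2:11722001-11722200, the most abundant of the 9, had a log2 fold change of 0.16 ± 0.07 (SE) and was not called (adjusted p = 0.164).

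Of the 47 microRNA windows, 2 were called higher and 4 lower, one of them the window over MIR854e described below. This compares with 4.48% higher and 3.55% lower among all windows tested, and 7.44% higher and 8.39% lower among the next 1800, and of all 505 microRNA windows tested 48 were higher and 24 lower. MIR163 (AT1G66725, chr1:24884201-24884400), whose product targets methyltransferases of the SABATH family, had 11125, 22283 and 39019 normalised counts in epiHybrids, 7408, 16854 and 25955 in epiRILs, and 16760 and 30519 in msCol 12 and 16. The epiHybrid was higher in 31 of 36 families, with a log2 fold change of 0.51 ± 0.07 (SE, adjusted p = 1.49e-06), and the levels in the msCol lines lay inside the range of the epiHybrids. The adjacent intergenic window at chr1:24884401-24884600 followed it, with a log2 fold change of 0.57 and a correlation of 0.99 between the log2 levels of the pair over 74 libraries. MIR156d, of the family that represses SPL transcription factors, was higher by 0.43 on the log2 scale.

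Of the microRNA windows lower in epiHybrids, that of MIR168a (AT4G19395), whose product targets ARGONAUTE1 mRNA, averaged 171550 ± 50092 normalised counts in epiHybrids and 207215 ± 41774 in epiRILs, with 150524 and 234155 in msCol 12 and 16. Its log2 fold change was -0.29 ± 0.08 (SE, adjusted p = 0.021), and it was not called without the family block. MIR773a, which targets a DNA methyltransferase gene, changed by -0.42 on the log2 scale. The most abundant microRNA windows, MIR398b, MIR398c, MIR167a and MIR159a, were not called, and MIR398b had a log2 fold change of -0.27 ± 0.17 (SE).

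MIR162b and MIR162a, whose identical products target DICER-LIKE1 mRNA, differed in their pattern. MIR162b (AT5G23065, chr5:7740601-7740800) had 14225, 26621 and 51710 normalised counts in epiHybrids, 20468, 40622 and 70719 in epiRILs, and 4051 and 11108 in msCol 12 and 16. Both msCol lines were below every epiHybrid and epiRIL, and the epiHybrid was below its own epiRIL in 33 of 36 families. The log2 fold change was -0.58 ± 0.08 (SE, adjusted p = 8.55e-07) for epiHybrids against epiRILs, 1.86 ± 0.34 for epiHybrids against msCol and 2.46 ± 0.36 for epiRILs against msCol. The difference of epiRILs from msCol was called also without msCol 12 (1.92, adjusted p = 0.0146) and without msCol 16 (3.33, adjusted p = 6.86e-06). It was the only call against msCol or the mid-parent value among all members for which both held, and that of epiHybrids against msCol was lost without msCol 12 (1.31, adjusted p = 0.189).

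MIR162a (AT5G08185, chr5:2634801-2635000) went the other way, with 11126 ± 3593 normalised counts in epiHybrids, 9786 ± 3190 in epiRILs, and 14684 and 24942 in msCol 12 and 16. Its log2 fold change for epiRILs against msCol was -1.02 ± 0.29 (SE, adjusted p = 0.0442), and the call was lost without either msCol line (adjusted p = 0.0756 and 0.685). The sum of the 2 windows was 38556 ± 10034 in epiHybrids, 51405 ± 14389 in epiRILs, and 18735 and 36051 in msCol 12 and 16. MIR162b lies in the 2.7 Mb around MS1 in which msCol carries Landsberg sequence, as do 2 other members, both of AT5G23665. Whether the Landsberg sequence changes the alignment of reads to this window was not tested.

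**Figure D3:**
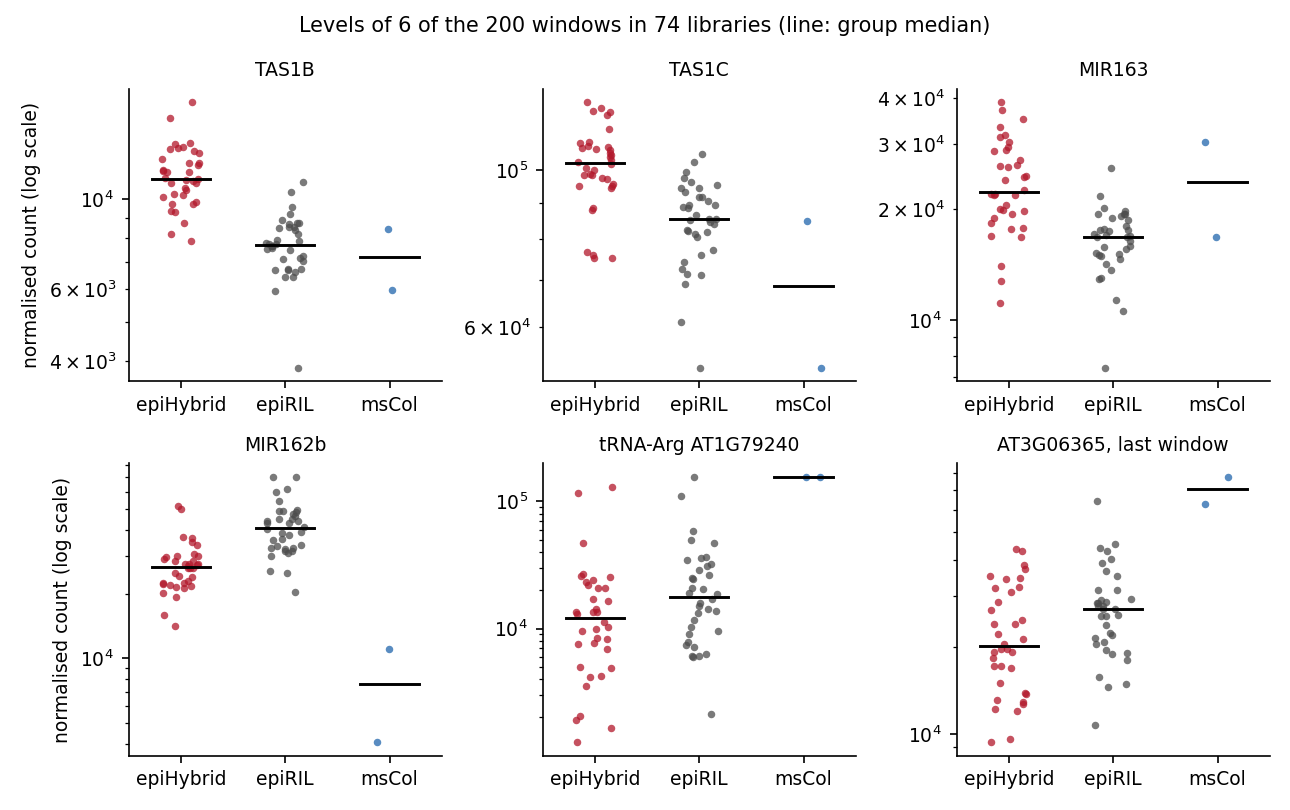
Normalised counts (log scale) of 6 windows in 36 epiHybrids, 36 epiRILs and 2 msCol lines; each point is a library and each line a group median. For MIR162b the msCol lines, at 4051 and 11108, lie below all other libraries, whereas for the tRNA-Arg window they lie at 156397 and 155808, near the top.

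Few windows of tRNA genes passed the test between epiHybrids and epiRILs, with 0 of 51 higher and 2 lower. A tRNA-Gly window at AT5G11225 had a log2 fold change of -0.71 and a tRNA-Lys window at AT5G61345 one of -0.48. In the 45S stretches 7 of 59 windows were called lower, where 3.55% of all windows and 8.39% of the next 1800 were, and 0 were called higher. The called changes there were small, between -0.21 and -0.14 on the log2 scale, and 12, 5 and 2 windows were called lower with median-of-ratios factors, with library size alone, and with library size computed without the 200 windows.

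Among the members were 3 windows of chromosome 5, 618 kb apart at most, that entered the list through a subset of lines. They lie beside or over genes annotated as MIR854. The window in AT5G29975 (chr5:11324601-11324800) is 11 bp from MIR854b, that in AT5G31719 (chr5:11689601-11689800) is 61 bp from MIR854d, and the window at chr5:11942601-11942800 overlaps MIR854e but not its annotated mature sequence. The window beside MIR854b had 242, 553 and 43124 normalised counts in epiHybrids (lowest, median and highest), 332, 721 and 92308 in epiRILs, and 710 and 457 in msCol 12 and 16. The window over MIR854e had 190, 433 and 29103 in epiHybrids, 276, 669 and 83037 in epiRILs, and 565 and 328 in msCol 12 and 16. Most lines, with both msCol lines, were thus under 1000, and the highest lines were far above it.

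A level above 1000 normalised counts was found at the 3 windows, in the order of their positions, in 14, 10 and 14 epiHybrids, in 15, 14 and 14 epiRILs and in 0 msCol lines. Of the epiRILs, 14 were above this level at all 3 windows and 21 at none. Over all 36 families, most of which were low in both libraries, the median ratio of an epiHybrid to its own epiRIL was 0.54, 0.48 and 0.51, and the ratio ran between 0.049 and 1.70. The epiHybrid was lower in 33, 31 and 32 families. The fitted log2 fold change was -0.999 beside MIR854b, -1.03 beside MIR854d and between these over MIR854e. These fold changes are a description with no test, since the windows became members through lines in which they were high, and their mean normalised counts were 6658, 4241 and 5951 in epiHybrids and 18987, 11362 and 16265 in epiRILs. The log2 levels of epiHybrids and their own epiRILs correlated at 0.97, 0.96 and 0.97 over 36 families. Those of the windows with each other correlated at 0.99 to 1.00 over the epiRILs. Both are descriptions of windows that lie near each other on chromosome 5. None of the sequence families above holds these windows, and whether they share reads was not tested.

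**Figure D4:**
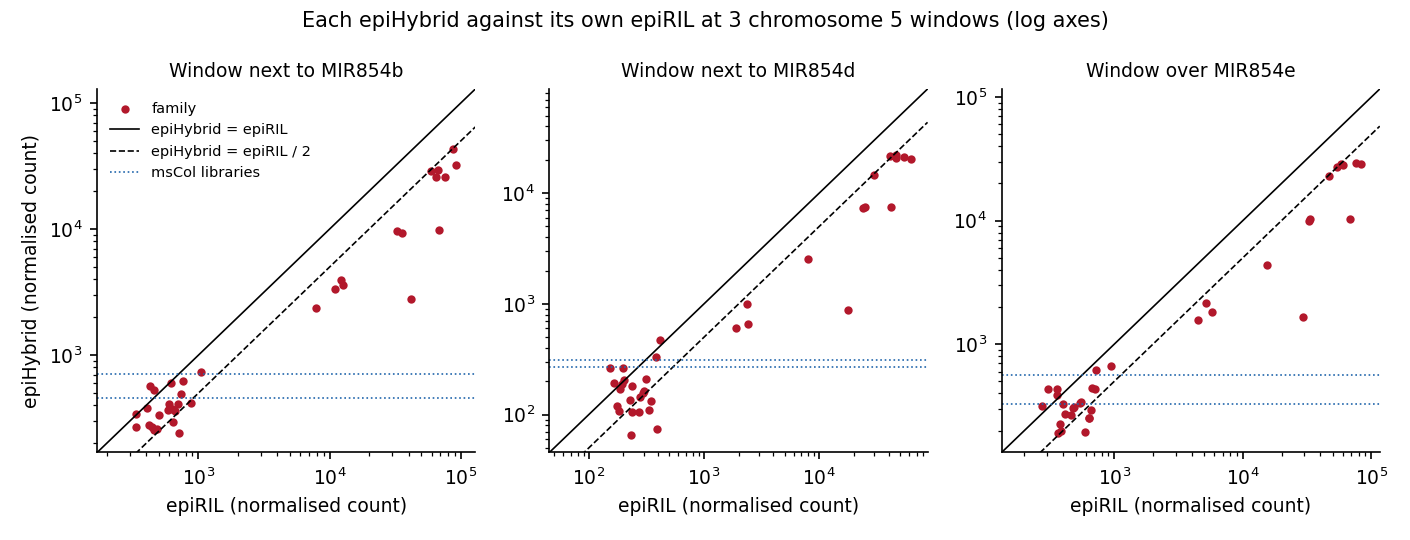
Normalised count of each epiHybrid against that of its own epiRIL at the windows next to MIR854b and MIR854d and over MIR854e (log axes; 36 families; dotted lines are the msCol lines). Nearly all families whose epiRIL is above 1000 lie on or below the dashed line, at which the epiHybrid has 50% of its epiRIL's level.

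A correlation of log2 levels between an epiHybrid and its own epiRIL above 0.8 was found for 6 of the 200 members (3%), against 3.99% of all windows tested. It exceeded 0.5 for 22 members (11%), against 24.2% of all windows, and its median was 0.12 for the members, 0.31 for the next 1800 windows and 0.25 for all windows. Beside the 3 windows just described, the 6 were an intergenic window at chr5:11188001-11188200 (0.88), the window of MIR843 (0.85) and an intergenic window at chr3:15676601-15676800 (0.85). The MIR843 window (AT3G48057) had 794, 3684 and 56646 normalised counts in epiHybrids, 833, 3614 and 69772 in epiRILs, and 2868 and 10968 in msCol 12 and 16, and the ranges overlapped throughout. Its medians lay below 7186, the mean raw count of the last member, so it became a member through lines in which it was high.

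Some pericentromeric members were higher in epiHybrids and others lower, among them the 3 windows near MIR854 genes. Those named here were picked for being higher, where 4.48% of all windows tested and 7.44% of the next 1800 were called higher. The window of AT4G06477 on chromosome 4, annotated as a transposable element gene or pseudogene, averaged 27133 ± 5811 normalised counts in epiHybrids, 22512 ± 6857 in epiRILs, and had 15351 and 26758 in msCol 12 and 16. It was higher in 33 of 36 families, with a log2 fold change of 0.32 ± 0.05 (SE, adjusted p = 6.46e-06). The intergenic windows at 11185801, 11186001 and 11188001 of chromosome 5 were higher by 0.33, 0.30 and 0.29 on the log2 scale. AT4G06477, 2 of these windows and 3 windows near 3054201 of chromosome 4 form 1 sequence family, whose sum was 100457 ± 23390 in epiHybrids, 91304 ± 26947 in epiRILs, and 63701 and 108589 in msCol 12 and 16.

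The epiHybrid was also set against the mid-parent value, the mean of epiRIL and msCol on the log scale, and both were set against msCol, in 1 model of all 74 libraries. The study took the arithmetic mean of the parents, which lies above the log-scale mean wherever the parents differ. The 3 comparisons share libraries with each other and with the one above. Of the 200 members, 39 were called against the mid-parent value (7 higher, 32 lower; 1.12% of all windows and 4.06% of the next 1800 windows). For epiRILs against msCol 39 were called (9 higher, 30 lower; 1.93% and 6.67%), and for epiHybrids against msCol 39 (8 higher, 31 lower; 1.2% and 4.72%). Scaling by library size alone gave 16 higher and 24 lower, 9 higher and 17 lower, and 11 higher and 25 lower in these comparisons, and it moved the median over all windows to 0.13, 0.14 and 0.21, against 0.03, 0.04 and 0.05. Called higher were 0.793%, 1.09% and 0.761% of all windows, and 3.06%, 5% and 3.39% of the next 1800. Median-of-ratios factors gave 4 higher and 40 lower for epiHybrids against msCol.

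Most of the lower calls were of the 45S stretches, and these were lost without msCol 16. In them 30, 27 and 28 of 59 windows were called lower against the mid-parent value, for epiRILs against msCol and for epiHybrids against msCol, and 0 were called higher. Called lower in these comparisons were 0.322%, 0.844% and 0.436% of all windows, and 1%, 1.67% and 1.33% of the next 1800. Without msCol 16, 0 of the 59 were called in each comparison, and 5, 5 and 6 members were called in all, every one of them higher. Without msCol 12, 56, 47 and 56 members were called (8, 11 and 9 of them higher). A property of the line msCol 16 and a property of its library cannot be told apart.

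Single windows of the stretches show the same dependence. The intergenic window at chr2:9401-9600 had 279400, 416005 and 772705 normalised counts in epiHybrids (lowest, median and highest), 306923, 425832 and 697204 in epiRILs, and 675662 and 1234590 in msCol 12 and 16. msCol 12 lay in the upper part of the other ranges and msCol 16 above them, and the log2 fold change of epiRILs against msCol was -1.15 ± 0.18 (SE, adjusted p = 7.67e-06) with both msCol lines, and -0.68 without msCol 16, where it was not called. The window of the rRNA gene AT3G41979 at chr3:14199601-14199800 had 107483, 179242 and 354451 in epiHybrids, 67150, 164056 and 269769 in epiRILs, and 177432 and 763497 in msCol 12 and 16. Only msCol 16 stood outside. Its log2 fold change for epiRILs against msCol was -1.46 ± 0.24 (SE, adjusted p = 3.07e-05), and -0.081 without msCol 16.

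Both msCol lines were above every epiHybrid, and msCol 12 was below the highest epiRIL, at the ends of the chromosome 3 stretch. The windows at chr3:14193001-14193200 and chr3:14203401-14203600 had medians of 20147 and 20159 normalised counts in epiHybrids, 27509 and 27156 in epiRILs, 63299 and 62906 in msCol 12, and 78710 and 78059 in msCol 16. The log2 fold changes were -0.96 and -0.95 against the mid-parent value and -1.34 and -1.33 for epiRILs against msCol. These windows and the one at chr2:9401-9600 share sequence, and without msCol 16 the calls against the mid-parent value were lost at log2 fold changes of -0.88 and -0.87. The calls for epiRILs against msCol were lost without either msCol line.

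Windows of 2 tRNA-Arg genes were the most reduced against msCol, whereas the 51 tRNA windows as a set leaned the other way. Their median log2 fold change was 0.49 for epiHybrids against msCol, with 0 called higher and 2 lower. For epiRILs against msCol it was 0.58, with 0 called. The medians of all windows were 0.05 and 0.04. The window at AT1G79240 (chr1:29804001-29804200) had 1273, 12054 and 129930 normalised counts in epiHybrids, 2110, 17793 and 157155 in epiRILs, and 156397 and 155808 in msCol 12 and 16. The msCol lines lay above every epiHybrid, and 1 epiRIL reached their level. The log2 fold change was -3.02 ± 0.71 (SE, adjusted p = 0.0125) for epiHybrids against msCol and -1.74 ± 0.45 (adjusted p = 0.0289) against the mid-parent value, and both calls were lost without either msCol line, at nearly the same fold change. The window at AT2G36600 had 437, 3003 and 76970 in epiHybrids, 600, 4433 and 124478 in epiRILs, and 87342 and 50945 in msCol 12 and 16, with a log2 fold change of -3.33 ± 0.93 (SE, adjusted p = 0.0486) for epiHybrids against msCol, a call that was also lost without msCol 12 (-2.90, adjusted p = 0.451) or msCol 16 (-3.69, adjusted p = 0.153). The log2 levels of the pair correlated at 0.91 over the 74 libraries. At AT2G36600 the medians of epiHybrids and epiRILs lay below 7186, the mean raw count of the last member. It thus became a member through libraries in which it was high, both msCol libraries among them, which the test does not take into account.

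**Figure D5:**
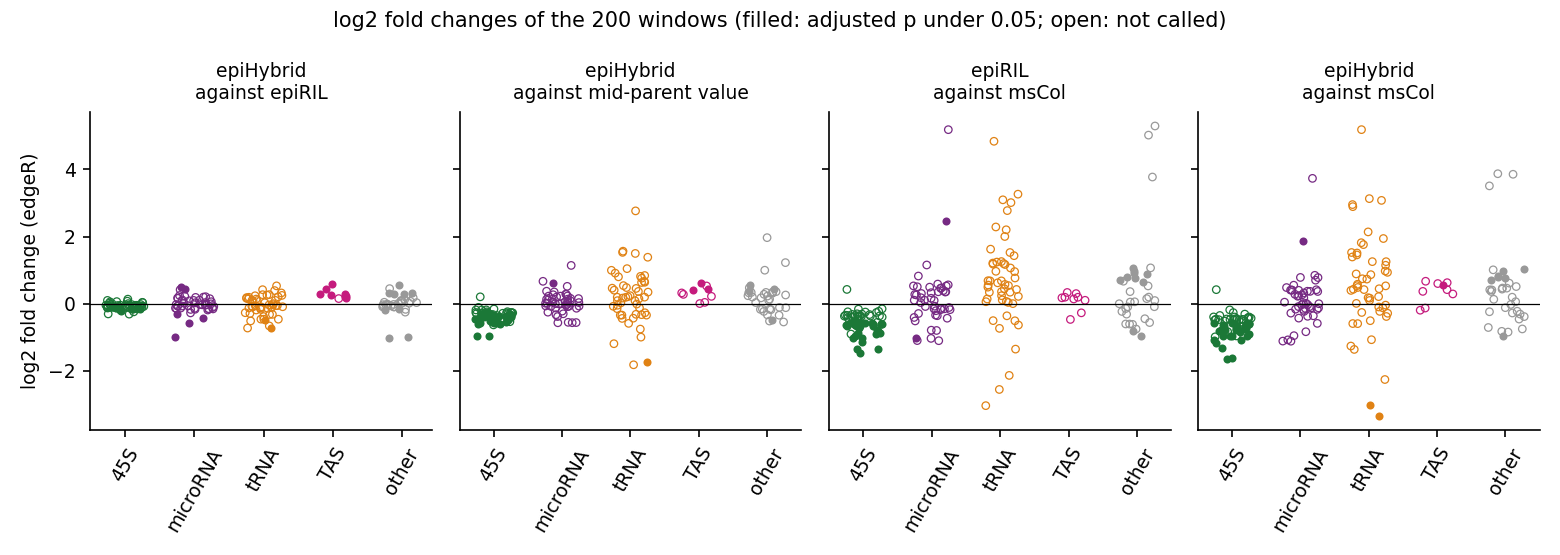
Fitted log2 fold changes of the 200 windows in the 4 comparisons, by class; filled points have an adjusted p under 0.05 and open points do not. The filled points of the 45S stretches are all below 0, and none of those in the 3 comparisons that involve msCol stays called without msCol 16.

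Windows that were higher than in msCol were mostly of 1 stretch of chromosome 3, between 1964601 and 1970400, around the non-coding gene AT3G01845 and the gene AT3G06435. The window at chr3:1967601-1967800 averaged 14168 ± 2010 normalised counts in epiHybrids, 13477 ± 2223 in epiRILs, and had 8672 and 5058 in msCol 12 and 16. Both msCol lines were below every epiHybrid and epiRIL. The log2 fold change was 1.05 ± 0.18 (SE, adjusted p = 0.000141) for epiHybrids against msCol and 0.97 ± 0.18 (adjusted p = 0.000312) for epiRILs against msCol, and it was 0.69 (adjusted p = 0.207) and 0.60 (adjusted p = 0.274) without msCol 16. The adjacent window at chr3:1967801-1968000 had log2 fold changes of 0.97 and 1.08 in these comparisons, and of 0.57 and 0.66 without msCol 16 (adjusted p = 0.426 and 0.288).

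Against the mid-parent value, 3 of the 7 higher windows were of TAS genes. TAS1B had a log2 fold change of 0.62 ± 0.11 (SE, adjusted p = 0.000132), which was called without msCol 16 (0.75, adjusted p = 0.00187) and not without msCol 12 (0.51, adjusted p = 0.0735). TAS1C had 0.41 ± 0.08 (SE, adjusted p = 0.00225), and was likewise called without msCol 16 only. The TAS2 window (AT2G39681, start 16539601 of chromosome 2) had 0.43 (adjusted p = 0.0244), a call that was lost without msCol 12 (0.37, adjusted p = 0.326) and without msCol 16 (0.51, adjusted p = 0.108). MIR162b was higher by 0.63 ± 0.17 (SE, adjusted p = 0.0445), and this call was lost without msCol 12 (0.35). The parents differ widely at MIR162b, so their log-scale mean lies well below their arithmetic mean. Whether epiHybrids exceed the arithmetic mean there was not tested.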

How the data were processed

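Small RNA libraries of 36 epiHybrids, 36 epiRILs and 2 msCol lines were used, grouped by the line label and paired by the family number, which names the paternal epiRIL; 36 of 36 families had correlated deviations (r 0.286 to 0.805 over 40106 windows). The authors aligned clean reads to TAIR10 with ShortStack, with the MIRNA search disabled, over 200-bp regions at 50-bp steps for each context, and deposited raw counts of reads of all lengths; the version is not given in the sources used here. The deposited counts summed over the windows to between 20995764 and 27084303 per library. PCR duplicates cannot be told from the counts, so intervals cover counting error only.

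The members and lists were chosen with earlier results of these data known. From the counts, edgeR 4.0.16 (R 4.3.3) was run with TMM scaling on windows averaging 2 or more counts, using the quasi-likelihood test with Benjamini-Hochberg adjustment at 0.05 over all windows; the family was a block for epiHybrids against epiRILs only. The spread for msCol, with 2 lines, is shared with the other groups. Windows named are the 10 most abundant, the most abundant of each class, the 3 largest called changes in each direction of each comparison, the 8 most abundant microRNA or TAS windows, and the 6 windows around the threshold; others named were chosen after their values were seen. Alternatives were DESeq2 1.42.0, limma 3.58.1 (voom), other scalings, filters, contexts and phases, and leaving out each msCol line or families 12 and 568. Shares were compared with 100000 sign flips or exact permutations (703 splits). Correlations used log2(normalised count + 1). The fits were also run on simulated counts with the same dispersion for every window and changes in epiHybrids only. These do not cover a msCol library that stands apart or windows as variable as those of tRNA genes. SciPy 1.17.1, NumPy 2.4.6, pandas 2.3.3 and matplotlib 3.10.9 in Python 3.11.15 were used. Annotation was RefSeq TAIR10.1, in which all 5 chromosomes end beyond the last window of the files.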

Additional observations from a re-analysis of the deposited data

How the results depend on the processing

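Leaving out 1 msCol line moved the results against msCol most. The number of members called ran between 5 and 56 against the mid-parent value, 5 and 47 for epiRILs against msCol, and 6 and 56 for epiHybrids against msCol, and the difference of the share of all 200 windows ran between -13.1 and 0.669 percentage points for epiRILs against msCol and between -13.2 and 0.585 for epiHybrids against msCol. Without msCol 16, log2 fold changes turned to 0.11 at 3_14199601 against the mid-parent value, to 0.28, 0.12 and 0.25 at 3_14202001, 2_5801 and 2_5601 for epiRILs against msCol, and to 0.29, 0.17 and 0.07 at 3_14202001, 2_5801 and 3_14199601 for epiHybrids against msCol (chromosome and start name the window). Without msCol 12 the same fold changes were -0.94, then -1.10, -1.37 and -1.59, then -1.11, -1.34 and -2.01. The share of TAS windows turned to -0.061 percentage points for epiRILs against msCol and that of the transposable element windows to 0.0751 for epiHybrids against msCol, and without msCol 12 that of the transposable element windows turned to -0.0234 for epiRILs against msCol. The opposite line left out gave 0.228 for TAS, -0.0985 for transposable elements in epiHybrids and 0.15 for transposable elements in epiRILs.

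With DESeq2 on windows averaging 50 or more counts, 52, 63 and 61 of the 200 members were called for epiHybrids against epiRILs, the mid-parent value and msCol. Of all windows tested in these fits, 25.8%, 4.67% and 4.75% were called. Without a filter, 57 members were called for epiHybrids against epiRILs, against 2.32% of all windows. Without the replicate block 18 were called (4.47% of all windows), and with the family as a random replicate block (voom) 32 (7.78% of all windows). In the CHG table, which holds 132 of the windows, 17 were called for epiRILs against msCol, against 31 of the same windows in the CHH table. Of all windows tested in the CHG table, 1.21% were called. The 200 most abundant windows of the CHG table differed in share by -4.56 (exact permutation p = 0.0654) and -4.67 percentage points (p = 0.0583) for epiRILs and epiHybrids against msCol. Between epiHybrids and epiRILs the 45S share turned to 0.117 and 0.382 in the CG and CHG tables, and the share of all 200 windows to 0.12 without families 12 and 568, none past the test. Without these families the exon windows correlated at r = 0.48 (permutation, adjusted p = 0.0232) between an epiHybrid and its epiRIL. Without the 2 families farthest from the median epiRIL share, this r was 0.25. The causes were not tested. In all, 78 values that answer a comparison and 548 values of single windows or classes kept their direction and their side of the threshold. Of the values that answer a comparison, 3 reversed in direction, 9 were counted as moved, 2 became weaker and 1 became stronger. Of those of single windows or classes, 12 reversed in direction, 50 were counted as moved and 82 lost their call. The mean count over the 74 libraries was high for all members, and 2 msCol lines limit every comparison with msCol. Some members were low in single libraries, for example 65 normalised counts in epiHybrid 340 at the window beside MIR854d.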

Other observations

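Without msCol 16, members outside the 45S stretches were called that were not called with both lines (the lone msCol library is assumed to vary like the other groups). MIR773a was higher in epiHybrids than in msCol by 2.77 on the log2 scale (adjusted p = 0.00844) and in epiRILs than in msCol by 3.13 (adjusted p = 0.00156), with 7185 normalised counts as the median of the epiHybrids, 9601 as that of the epiRILs, and 1125 and 7946 in msCol 12 and 16. A tRNA-Met window at AT5G41675 differed by 1.90 (adjusted p = 0.0228) and 1.98 (adjusted p = 0.0116), with 7816 and 34406 normalised counts in msCol 12 and 16. The 2 msCol lines thus differed from each other at these loci more than the medians of the epiHybrids and epiRILs did.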
